A study of Homo sapiens with 8 samples.

Results

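The genes described here are 10 liver genes grouped under the name acute phase genes, chosen by symbol among the protein-coding genes of the table: the serum amyloid A genes SAA1, SAA2 and SAA4, the pentraxins CRP and APCS, the lipocalin LCN2, the orosomucoids ORM1 and ORM2, haptoglobin (HP) and hepcidin (HAMP). The group name does not mean that every member, such as SAA4 or APCS, responds to inflammation in people. All 10 were found among the 58735 genes of the table, and 6 of them reached 1 FPKM (fragments per kilobase, the length-adjusted expression unit of the table) in at least 2 of the 8 libraries. They were selected with the rise of LCN2 and APCS in the transfected line already known, so their differences from the parental line are given as description without a test. RNA sequencing was done on HepaRG, a human bipotent hepatic progenitor line, and on M14A, a gene-edited HepaRG derivative whose genotype label reads FoxM1/HNF4A transfected. HepaRG flask (wild type, 3 libraries) and M14A flask (3 libraries) were planar flask cultures, and printed M14A (2 libraries) was the transfected line taken 4 h after printing in a bioink named GP. The sources used here do not give the promoter of the transfected genes or whether M14A is 1 clone. Flask cells were detached and pelleted in TRIzol, whereas printed constructs were frozen and ground first, so the effects of printing and of the collection method cannot be told apart.

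The acute phase response is the change in plasma proteins made by hepatocytes after infection or injury. Interleukin-6 family cytokines act through gp130, JAK kinases and STAT3, and interleukin-1 and tumour necrosis factor act through NF-kappaB, with C/EBP factors working beside both. Serum amyloid A and C-reactive protein are the classical strong responders in people. Orosomucoids and haptoglobin rise more moderately, and albumin and transthyretin are classed as negative members because they fall. HNF4A keeps many of these genes active in hepatocytes.

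Recovered depth ran from 15632154 to 19148262 reads per library. Mitochondrial genes took 6.91 to 7.25% of reads in HepaRG flask, 8.21 to 9.72% in M14A flask, and 13.3% and 16.4% in the printed libraries. Among replicates, library 1 of M14A flask differed most from its own group (chi-square per degree of freedom 65.2 and 78.0 against libraries 2 and 3, which differed from each other by 4.63). Values without library 1 are given below for some genes only, and the means and SDs of M14A flask include it. The labels do not say that replicates were separate cultures, and all p-values rest on the spread among these libraries, part of which may be technical. In bulk RNA, fewer cells of a type and less RNA per cell cannot be told apart. The 9 hepatocyte markers summed to 26.9 to 29 FPKM in HepaRG flask, 499 to 607 in M14A flask and 768 to 789 in printed cells. Most of the M14A flask sum came from SERPINA1 (334 FPKM) and FGB (120 FPKM), which are also acute phase genes. Of the 6 tested (limma, adjusted p under 0.05), 5 rose in M14A flask, CPS1 of the urea cycle fell from 2.5 to 1.02 FPKM, and 3 rose in printed cells, while TTR, TF and CYP3A4 stayed below 0.5 FPKM in every library. The 12 markers of neutrophils and macrophages, which also make LCN2, ORM1 and HP, summed to 6.89 to 7.47, 26.6 to 32.8 and 56.1 to 60.1 FPKM in the same order. All 3 that could be tested rose in M14A flask. S100A9, which made up most of the sum in M14A cells, averaged 3.41, 19.9 and 45.5 FPKM in the 3 groups and rose again in printed cells. LAPTM5 averaged 0.768, 4.4 and 5.96 FPKM, and CD14 averaged 1.71, 3.55 and 4.77 FPKM. Of the other 9, PTPRC, CSF3R, MPO, CD68, CD163 and LYZ were below 0.1 FPKM in all 8 libraries. The 7 stellate cell and fibroblast markers summed to 24.2 to 26.1, 79.0 to 109 and 123 to 137 FPKM. Of 6 tested, ACTA2, DCN and PDPN rose and COL1A1 and PDGFRB fell in M14A flask, and DCN rose again in printed cells. Both lines are labelled hepatic stem cells, and the 7 biliary and progenitor markers summed to 117 to 121, 26.7 to 62.4 and 47.6 to 51.1 FPKM. Of 5 tested, SOX9, SPP1 and CD24 fell in M14A flask, KRT7 rose there and again in printed cells (0.463, 2.03 and 5.74 FPKM), and KRT19 was not called (42.7, 24.1 and 26.9 FPKM). The M14A flask libraries gave 49.0, 11.6 and 11.6 FPKM for KRT19, against 41.2 to 45.4 FPKM in HepaRG flask, so its mean rests on library 1. EPCAM averaged 0.183 FPKM in HepaRG flask and had 0 reads in every M14A library. Of the 4 endothelial markers only KDR could be tested, and it rose from 0.545 to 1.42 FPKM in M14A flask, with CDH5 at 0 reads in all libraries. Some of these calls were set by the filter of 1 FPKM in 2 libraries. APOA1, LAPTM5, KRT7 and KDR reached 1 FPKM only in M14A cells, so they had to be higher there. CD24 and PDGFRB reached it only in HepaRG flask, so they had to be lower in M14A flask. Among all genes tested, 16.1% were called higher and 14.7% lower in M14A flask, and 17.7% and 15.5% in printed cells. The part of these marker levels in the results below was not tested.

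Promoter sequence was read for 6 of the 10 genes from RefSeq (GRCh38.p14), as the 250 bases before the start that RefSeq annotates, and 4 are shown because they set 3 genes that were high in M14A beside CRP, which was nearly silent. Capitals mark matches to a C/EBP motif (TTNNGNAAT) or to the NF-kappaB motif, searched on both strands. RefSeq starts can differ from those of GENCODE 29, the annotation behind the gene coordinates given below. The windows of LCN2 and HAMP lie wholly inside the GENCODE gene, with 74 and 182 of their 250 bases in its exons, while 42 bases of ORM1, 91 of SAA4, 1 of APCS and 0 of CRP are exonic. Exonic bases at the window ends were left off, so that the stretches shown are chr9:128149265-128149440 on the plus strand for LCN2, chr9:114322848-114323055 on the plus strand for ORM1, chr1:159587576-159587824 on the plus strand for APCS and chr1:159714590-159714839 on the minus strand for CRP.
LCN2: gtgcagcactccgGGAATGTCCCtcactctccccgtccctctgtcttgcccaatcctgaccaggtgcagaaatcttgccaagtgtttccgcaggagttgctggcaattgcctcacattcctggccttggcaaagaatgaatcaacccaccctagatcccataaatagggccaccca
ORM1: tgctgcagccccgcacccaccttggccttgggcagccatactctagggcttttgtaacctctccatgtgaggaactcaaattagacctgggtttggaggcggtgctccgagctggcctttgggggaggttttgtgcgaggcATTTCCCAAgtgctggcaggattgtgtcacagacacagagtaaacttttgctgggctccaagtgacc
APCS: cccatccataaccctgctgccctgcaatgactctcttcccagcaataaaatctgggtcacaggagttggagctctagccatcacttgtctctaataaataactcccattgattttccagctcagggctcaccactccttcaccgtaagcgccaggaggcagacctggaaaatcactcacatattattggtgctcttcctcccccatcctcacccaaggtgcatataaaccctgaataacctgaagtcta
CRP: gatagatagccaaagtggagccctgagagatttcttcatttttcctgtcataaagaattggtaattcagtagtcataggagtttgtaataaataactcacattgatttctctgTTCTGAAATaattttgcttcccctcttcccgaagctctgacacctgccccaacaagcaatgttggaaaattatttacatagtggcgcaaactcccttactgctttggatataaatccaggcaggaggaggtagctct
Motifs were searched in the whole windows. The NF-kappaB match in LCN2 lay 175 to 166 bases upstream of the RefSeq start, and 9.96% of all 35116 promoters held this motif in a window of the same length. C/EBP matches were found 109 to 101 bases upstream in ORM1, 137 to 129 in CRP and 106 to 98 in SAA4, against 9.85% of all promoters. The STAT motif (TTCNNNGAA, 6.57% of promoters) was found in HAMP, 93 to 85 bases upstream. TATAAA on the coding strand (6.80% of promoters) was found in APCS, CRP and ORM1 (there in the exonic bases not shown), with no overlap with the other motifs, and the HNF4 motif CAAAGTCCA (0.325%) in none of the 6. The pentraxin promoters of APCS and CRP aligned with 54.7% identity over 278 columns, against 44.1 to 51.8% for the other 14 pairs. The motif content of the windows did not sort the genes by level: CRP, at a mean of no more than 0.0799 FPKM in any group, held both a C/EBP match and a TATA box, as did ORM1 at 91.2 FPKM or more.

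The acute phase genes split into 6 that were plainly expressed in M14A cells and 4 that stayed below 1 FPKM in every library. Of the 6, SAA1, SAA2, APCS and LCN2 were far more abundant in M14A flask than in HepaRG flask, while ORM1 was already the most abundant member in the parental line, with ORM2 and SAA1 next. In printed cells 5 of them rose further. Together the 10 genes took 0.0170 to 0.0196% of reads in HepaRG flask, 0.159 to 0.203% in M14A flask, and 0.400% and 0.377% in the printed libraries. Each group's range was above the one before it.

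**Figure D1:**
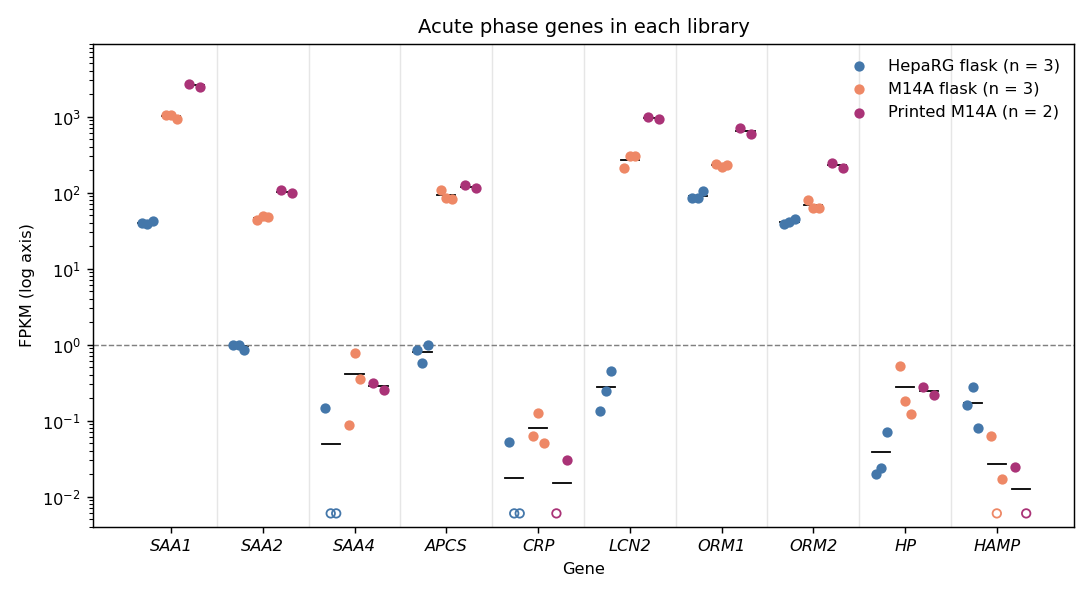
FPKM of the 10 acute phase genes on a log axis, 1 point per library, coloured by group, with a bar at the group mean; open circles at the bottom are libraries with 0 reads, and the dashed line is 1 FPKM. SAA1, SAA2, LCN2, ORM1 and ORM2 step upward from HepaRG flask to M14A flask to printed M14A. APCS makes a large step and then a small one, and SAA4, CRP, HP and HAMP lie under the line in all 8 libraries.

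SAA1 (ENSG00000173432, chr11:18266174-18269977 on GRCh38) encodes the main acute phase serum amyloid A, an apolipoprotein carried on high-density lipoprotein. It stood at 39.6, 39.1 and 41.9 FPKM in HepaRG flask, at 1040, 1062 and 914 FPKM in M14A flask, and at 2686 and 2433 FPKM in printed cells. The groups did not overlap, and libraries of a group lay close together. The means were 40.2 ± 1.46, 1005 ± 79.8 and 2559 ± 179 FPKM (SD, n = 3, 3 and 2), ratios of 25 between the flask-grown lines and 2.55 from flask to printed M14A. Among protein-coding genes ordered by mean FPKM, SAA1 moved from place 827 in HepaRG flask to place 20 in M14A flask and place 14 in printed cells.

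SAA2 (ENSG00000134339, chr11:18239223-18248643), the neighbouring gene for the other acute phase form, stood at 1.00, 0.996 and 0.836 FPKM in HepaRG flask, at 43.7, 48.5 and 48.0 FPKM in M14A flask, and at 107 and 98.0 FPKM in printed cells. Its mean was 49.5 times higher in the transfected than in the parental flask cells, and 2.19 times higher again after printing, without overlap. SAA1 exceeded SAA2 by 39.3 to 50.1 times in HepaRG flask, 19.0 to 23.8 times in M14A flask and 25.1 and 24.8 times in printed cells. This ratio is uncertain on 2 counts. SAA2 was scaled by a gene length 3.43 times its median coding transcript, so at coding-transcript length its M14A flask level is 160 FPKM rather than 46.7. The genes also share sequence, with 28.5% of the 100-base words of SAA1 found in SAA2.

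SAA4, the constitutive serum amyloid A of liver, is the contrast within the family. It had 2 reads over the 3 HepaRG libraries, 17 over the M14A flask libraries and 6 over the printed ones, between 0 and 0.775 FPKM in single libraries. The M14A flask libraries gave 0.0861, 0.775 and 0.349 FPKM and overlapped both other groups. Of its exon bases, 65.5% also belong to the readthrough gene SAA2-SAA4, so reads there may not have been assigned to it.

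The pentraxins form rings of identical subunits that bind phosphocholine and nuclear debris, and their main liver forms are CRP and APCS (serum amyloid P). APCS (ENSG00000132703, chr1:159587825-159588865) stood at 0.860, 0.564 and 0.980 FPKM in HepaRG flask, at 109, 83.9 and 82.1 FPKM in M14A flask, and at 124 and 114 FPKM in printed cells. The mean was 115 times higher in M14A flask than in HepaRG flask (91.8 ± 15.2 against 0.801 ± 0.214 FPKM), with no overlap. CRP (ENSG00000132693, chr1:159712289-159714589) lies on the same chromosome and gave 2, 9 and 1 reads in the 3 groups, so its highest single value, in an M14A flask library, was 0.127 FPKM from 5 reads. CRP was therefore at or near the counting limit in all groups while APCS held places 358 and 419 among protein-coding genes in M14A flask and printed cells. Between M14A flask and HepaRG flask the ratio of CRP reads per unit of depth was 5.12 with a 95% exact interval of 1.06 to 48.7, which covers counting error only. It was 3.52 without M14A flask library 2, and 3.24 and 3.41 without HepaRG library 2 or 3, with lower bounds of 0.504, 0.671 and 0.706.

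LCN2 (ENSG00000148346, chr9:128149071-128153455) encodes neutrophil gelatinase-associated lipocalin, which withholds iron from bacteria by binding their siderophores, and it is a textbook NF-kappaB target in epithelia. It stood at 0.133, 0.245 and 0.448 FPKM in HepaRG flask, from 4, 9 and 15 reads. In M14A flask it stood at 212, 303 and 300 FPKM, and in printed cells at 989 and 919 FPKM. Library 1 of M14A flask was the low one, and no group overlapped another. The ratio of means was 986 between the flask-grown lines and 3.51 from flask to printed M14A, and LCN2 went from place 12389 to places 79 and 39 among protein-coding genes. Relative to SAA1 it was 0.00335 to 0.0107 in HepaRG flask, 0.204 to 0.328 in M14A flask and 0.368 and 0.378 in printed cells.

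The orosomucoids, or alpha-1-acid glycoproteins, are carriers of basic drugs and are made at a substantial basal rate by liver. ORM1 (ENSG00000229314, chr9:114323056-114326475) stood at 84.4, 83.9 and 105 FPKM in HepaRG flask, at 235, 219 and 231 FPKM in M14A flask, and at 697 and 583 FPKM in printed cells. Its neighbour ORM2 (ENSG00000228278, chr9:114329869-114333252) stood at 38.6, 40.5 and 45.3 FPKM, then 80.9, 62.5 and 63.0 FPKM, then 242 and 213 FPKM. Both were higher in each successive group without overlap. M14A flask exceeded HepaRG flask 2.5-fold for ORM1 and 1.66-fold for ORM2, and printed cells exceeded M14A flask 2.80-fold and 3.30-fold. Which step was larger depended on the scaling for ORM1, whose log2 steps were 1.32 and 1.48 as deposited but 1.12 and 0.72 at equal library totals, and not for ORM2, with 0.71 and 1.72 as deposited and 0.51 and 0.96 at equal totals. The ratio of ORM1 to ORM2 was 2.07 to 2.32 in HepaRG flask, 2.91 to 3.67 in M14A flask and 2.88 and 2.74 in printed cells. About 33.7% of the 100-base words of ORM1 are shared with ORM2, so the split between them is uncertain.

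Haptoglobin binds free haemoglobin, and hepcidin is the liver hormone that triggers degradation of the iron exporter ferroportin. HP had 13, 77 and 39 reads in the 3 groups. Its M14A flask values were 0.521, 0.180 and 0.122 FPKM, with 45 of the 77 reads in library 1, against 0.0197, 0.0241 and 0.0707 FPKM in HepaRG flask. Libraries 2 and 3 of M14A flask were also above every HepaRG library. Read totals per unit of depth were 6.74 times higher in M14A flask than in HepaRG flask (95% exact interval 3.72 to 13.2, counting error only), 3.94 times without M14A flask library 1 (2.01 to 8.18) and 11.7 times without HepaRG library 3 (4.79 to 37.0). HAMP went the other way, with 33 reads in HepaRG flask, 4 in M14A flask and 1 in printed cells. Its values were 0.159, 0.275 and 0.0793 FPKM in HepaRG flask against 0.0624, 0 and 0.0169 FPKM in M14A flask, and HepaRG flask exceeded M14A flask 7.25-fold (2.58 to 28.2, counting error only). That ratio was 20.6 (3.45 to 839) without M14A flask library 1, which leaves 1 read, and 4.69 (1.67 to 18.2) without library 2. HP and HAMP were scaled by gene lengths 4.71 and 4.85 times their median coding transcripts, and at coding-transcript length HP would reach 1.29 FPKM in M14A flask and HAMP 0.829 FPKM in HepaRG flask.

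By mean FPKM the order in HepaRG flask was ORM1, ORM2, SAA1, SAA2, APCS, LCN2, HAMP, SAA4, HP and CRP. In M14A flask it was SAA1, LCN2, ORM1, APCS, ORM2, SAA2, SAA4, HP, CRP and HAMP, and in printed cells it differed only in that ORM2 passed APCS. Several neighbours in these orders were not separated by their spread. In HepaRG flask ORM2 overlapped SAA1, SAA2 overlapped APCS, and LCN2 overlapped HAMP. In M14A flask LCN2 overlapped ORM1. Neighbours among the lowest 4 members overlapped in each group, except HP and CRP in printed cells. The orders also depend on the gene lengths used for scaling. At coding-transcript length SAA2 would stand above APCS and ORM2 in M14A flask (160 against 91.8 and 68.8 FPKM) and in printed cells (352 against 119 and 227 FPKM). In HepaRG flask SAA1 would then stand above ORM2 (53.5 against 41.5 FPKM) and HAMP above APCS and LCN2 (0.829 against 0.801 and 0.534 FPKM), and HP would stand above SAA4 in every group.

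The comparison of M14A flask with HepaRG flask shows how the transfected line differs from its parent in flask culture. A difference of at least 2-fold on the log2(FPKM + 1) scale with no overlap was found upward for 5 of the 10 members and downward for 0, while 6.65% of all genes tested were that much higher. The log2 differences with SE were 7.73 ± 0.17 for LCN2, 5.68 ± 0.16 for APCS, 4.62 ± 0.11 for SAA2, 4.61 ± 0.12 for SAA1, 1.32 ± 0.14 for ORM1 and 0.71 ± 0.15 for ORM2. The scale understates low genes, and ORM2 fell short of the 2-fold size. SAA2, APCS and LCN2 reached 1 FPKM in 2 libraries only in M14A cells, so they had to be higher there. Against HepaRG flask, printed cells were higher by that size for all 6 members that passed the filter, from 2.43 for ORM2 to 9.55 for LCN2, beside 13.9% of all genes. Nothing about the members is read from these shares, because the difference was known when they were chosen.

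**Figure D2:**
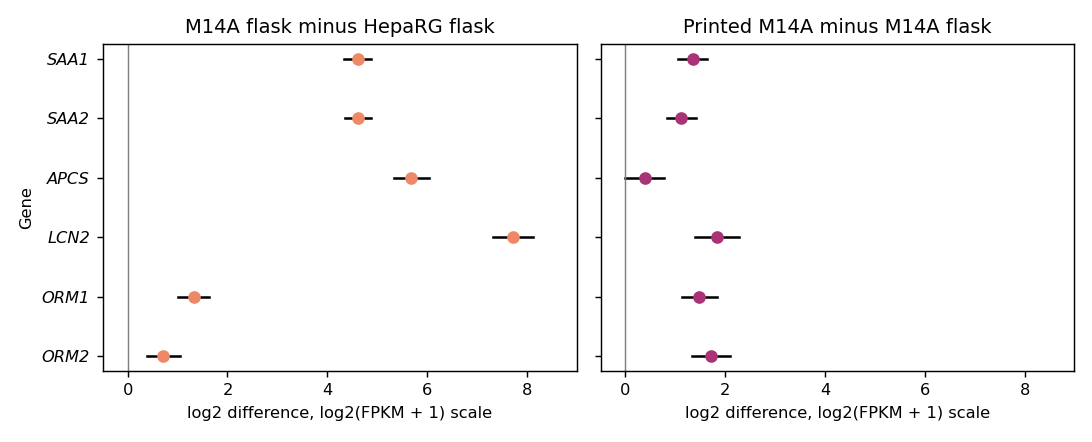
Log2 difference on the log2(FPKM + 1) scale with its 95% interval for the 6 members that passed the filter, M14A flask minus HepaRG flask on the left and printed M14A minus M14A flask on the right, on the same axis. On the left the values spread from 0.71 for ORM2 to 7.73 for LCN2, and on the right 5 lie between 1.12 and 1.83 while the interval of APCS reaches 0.

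The comparison of printed M14A with M14A flask sets the same line 4 h after printing against flask culture, and it uses the same M14A flask libraries as the one above. Of the 10 members 5 rose and 0 fell at an adjusted p below 0.05 (limma, Benjamini-Hochberg over 14349 genes), where 17.7% of all genes tested were called higher and 15.5% lower. LCN2 rose by a log2 difference of 1.83 (SE 0.19, limma adjusted p = 6.8e-04) and ORM2 by 1.72 (SE 0.16, limma adjusted p = 5.7e-04). ORM1 rose by 1.48, SAA1 by 1.35 and SAA2 by 1.12, with limma adjusted p of 6.6e-04, 5.8e-04 and 8.8e-04. Both printed libraries were above all 3 flask libraries for each of these genes, and also for APCS. The share of all genes for which this held was not counted, so nothing about the members is read from it. APCS differed by 0.39 (95% interval -0.01 to 0.78, limma adjusted p = 0.12), and without M14A flask library 1 it was called higher at 0.52 (adjusted p = 0.0098). HP gave a read ratio of 0.944 (0.625 to 1.41), which turned to 1.61 (0.986 to 2.66) without M14A flask library 1. SAA4 gave 0.658 (0.212 to 1.75), which turned to 1.20 (0.322 to 4.51) without M14A flask library 2. All 4 intervals covered 1, and CRP and HAMP had 1 read each in printed cells.

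Printed libraries carried more signal from short and from abundant genes in general. The 5 members that rose are all under 2500 bases long, and SAA1, LCN2, ORM1 and ORM2 also averaged over 50 FPKM, with SAA2 below that level. Over the 11306 protein-coding genes tested the median log2 difference was 0.01. It was 0.77 for the 173 genes of up to 1000 bases, 0.49 for the 1560 genes of over 1000 to 2500 bases, and -0.06 for the longer ones. Genes with a mean of at least 50 FPKM over all 8 libraries, the printed ones included, had a median of 0.67. A class made this way favours genes that are high in printed cells, and the log2(FPKM + 1) scale shrinks the differences of low genes. Among the 349 genes that were at most 2500 bases long and at least 50 FPKM, bounds set after the data were seen, the median was 0.90 and 73.1% were called higher. In this class 0.287% of genes exceeded the log2 difference of LCN2, 1.43% that of ORM2, 8.02% that of ORM1, 14.9% that of SAA1 and 84.5% that of APCS. SAA2 lies outside this class by its level. Its log2 difference was exceeded by 11.0% of the genes of over 1000 to 2500 bases and by 1.64% of those with a mean below 50 FPKM. LCN2 and ORM2 thus stood near the top of this class, SAA1 inside its upper part and APCS in its lower part.

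**Figure D3:**
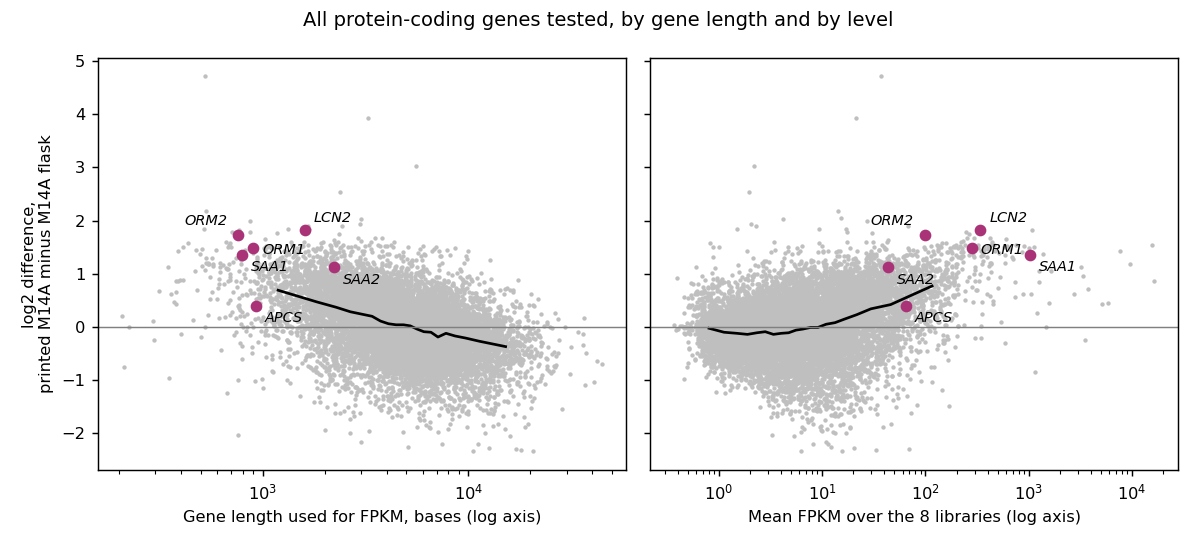
Log2 difference of printed M14A minus M14A flask for the 11306 protein-coding genes tested (grey points), against the gene length used for FPKM (left) and the mean FPKM over the 8 libraries (right), both on log axes; the black line joins medians of 20 equal-sized bins, and 6 acute phase genes are marked. The line falls with length and climbs with level, and LCN2 and ORM2 lie furthest above it among the marked genes.

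With each library's trend with gene length removed, 5 members were still called higher, from 0.85 for SAA2 to 1.53 for LCN2. With the trends with length and level both removed, LCN2 was higher by 1.21, ORM2 by 0.99, SAA2 by 0.79 and ORM1 by 0.54, the last with a limma adjusted p of 0.021. SAA1 kept 0.30 and lost its call (adjusted p = 0.078), and APCS stood at -0.08. Without M14A flask library 1 in that fit, SAA1 stood at 0.19 and was called (adjusted p = 0.030).

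The scaling of the libraries also mattered. The deposited values sum to 254141 to 514152 FPKM per library, most in printed cells. Set to equal totals, printed minus flask has a median over all genes of -0.50, and calls go from 2544 higher and 2226 lower to 483 higher and 6755 lower. On that scale LCN2 was higher by 1.06, ORM2 by 0.96, ORM1 by 0.72 and SAA1 by 0.58, all called. SAA2 lost its call at 0.36 (limma adjusted p = 0.097), and APCS was called lower at -0.37 (limma adjusted p = 0.033). With totals equal after leaving out mitochondrial genes, which shifts the median to -0.39 and gives 814 higher and 5459 lower calls, the 5 rises remained at 0.54 to 1.24. Under quantile scaling LCN2 had 0.70 and lost its call (limma adjusted p = 0.11), while SAA1, SAA2, ORM1 and ORM2 were called at 0.35, 0.58, 0.39 and 0.95. Of the 6 genes, ORM1 and ORM2 were called higher under all 22 alternatives run.

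**Figure D4:**
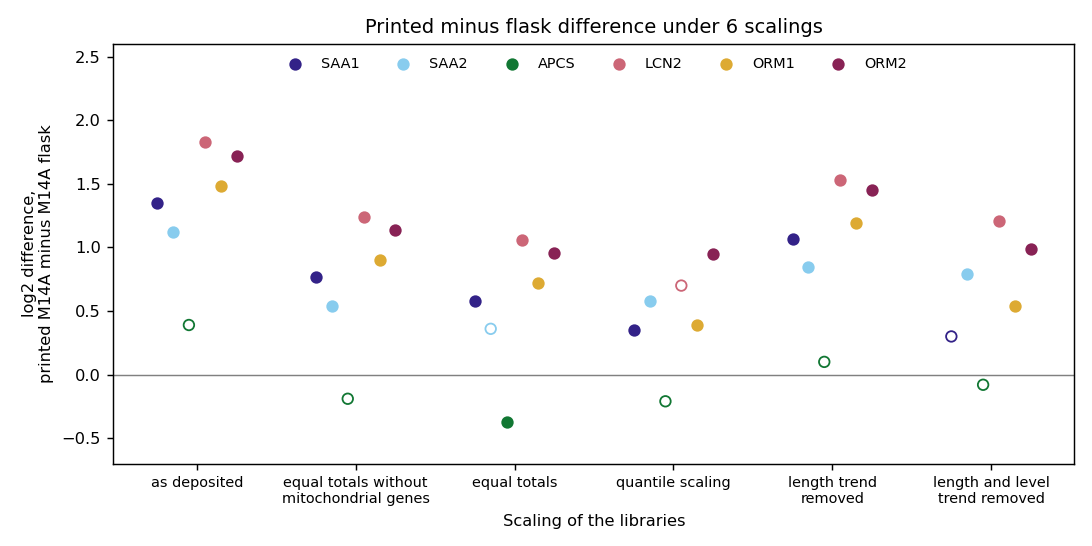
Log2 difference of printed M14A minus M14A flask for the 6 members under 6 ways of scaling the libraries; filled points passed an adjusted p below 0.05 in limma and open points did not. LCN2, ORM1, ORM2, SAA1 and SAA2 stay above 0 throughout, with 1 open point each for SAA1, SAA2 and LCN2, and APCS moves from 0.39 to -0.37.

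The inducers and signal carriers of the response were read from lists of pathway genes. Among all genes tested, M14A flask was called higher than HepaRG flask for 16.1% and lower for 14.7%. Printed cells were called higher than M14A flask for 17.7% and lower for 15.5%. A gene enters the test by reaching 1 FPKM in 2 libraries, so one that does so in HepaRG or in M14A cells alone had to differ. IL1B reached it in M14A cells alone. Of the inducing cytokines 3 of 10 could be tested. IL1B, the interleukin-1 of inflammasome activation, rose from 0.499 ± 0.130 to 4.16 ± 1.62 FPKM in M14A flask (log2 difference 1.74, SE 0.20, limma adjusted p = 3.0e-04), and LIF, an interleukin-6 family cytokine, rose from 8.29 ± 0.211 to 21.1 ± 5.72 FPKM (log2 difference 1.22, limma adjusted p = 0.0011). In printed cells LIF fell to 8.42 ± 0.839 FPKM (log2 difference -1.20, SE 0.20, limma adjusted p = 0.0032), whereas IL1B differed by 0.23 (limma adjusted p = 0.48). IL6 itself averaged 0.0434, 0.502 and 0.605 FPKM in HepaRG flask, M14A flask and printed cells and was too low to test.

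Of 9 tested receptors, 3 rose and 1 fell in M14A flask, and 0 rose and 3 fell in printed cells. Over all genes tested, 16.1% rose and 14.7% fell in M14A flask, and 17.7% and 15.5% in printed cells. The 3 falls became 1 without either printed library, 0 when only the groups compared were fitted, and 5 without M14A flask library 1 or at equal totals. IL22RA1, the interleukin-22 receptor chain of epithelia, rose from 0.940 ± 0.185 to 7.14 ± 0.489 FPKM in M14A flask (log2 difference 2.07, SE 0.12, limma adjusted p = 5.2e-06). IL6R, which gives hepatocytes their sensitivity to interleukin-6, fell from 14 ± 3.91 to 7.55 ± 0.970 FPKM in printed cells (log2 difference -0.79, SE 0.20, limma adjusted p = 0.018), and this call was lost without either printed library. The shared chain gp130 (IL6ST) averaged 20.7, 19.0 and 18.3 FPKM, with no call in either comparison. LIFR, the chain through which LIF signals, differed by -0.68 in M14A flask (limma adjusted p = 0.019), a call lost without any 1 of the HepaRG libraries.

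Among 17 kinases and transcription factors, 10 rose and 1 fell in M14A flask, and 0 rose and 4 fell in printed cells. Over all genes tested, 16.1% rose and 14.7% fell in M14A flask, and 17.7% and 15.5% in printed cells. The 4 falls became 2 without printed library 2, 1 when only the groups compared were fitted, 8 under quantile scaling and 16 at equal totals. HNF4A, 1 of the 2 genes named in the genotype label, went from 6.14 ± 0.423 to 40.9 ± 2.70 FPKM in M14A flask and to 15.4 ± 2.5 FPKM in printed cells, where it fell by 1.36 on the log2 scale (SE 0.15, limma adjusted p = 7.2e-04). STAT3 and CEBPD rose in M14A flask, by 1.07 and 1.89 (limma adjusted p = 0.0046 and 0.0015), and their printed differences of -0.41 and -0.56 were not called. Both were called lower at equal totals (-1.14 and -1.30), without mitochondrial genes in the totals (-0.97 and -1.12) and under quantile scaling (-0.66 and -0.96), and CEBPD also with length and level trends removed (-1.07). CEBPB, the C/EBP factor also called NF-IL6, stood at 191 ± 60.1 FPKM in M14A flask and 83.7 ± 29.8 FPKM in printed cells (log2 difference -1.19, SE 0.28, limma adjusted p = 0.012), a call lost without printed library 2 at -0.82. CEBPA differed by -0.78 in M14A flask (limma adjusted p = 0.024), a call lost when library 2 or 3 of either flask group was left out.

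Some of the feedback inhibitors are induced by the pathways they restrain. Of 8 tested, 6 rose and 0 fell in M14A flask, and in printed cells 3 fell and 1 rose, or 7 and 0 at equal totals. Over all genes tested, 16.1% rose and 14.7% fell in M14A flask, and 17.7% and 15.5% in printed cells. TNFAIP3, the ubiquitin-editing brake on NF-kappaB known as A20, rose from 5.69 ± 0.0789 to 64.6 ± 8.01 FPKM in M14A flask (log2 difference 3.29, SE 0.14, limma adjusted p = 8.6e-07) and fell to 34.1 ± 4.66 FPKM in printed cells (log2 difference -0.90, limma adjusted p = 0.0033). NFKBIA, the inhibitor that holds NF-kappaB in the cytoplasm, fell from 126 ± 28.6 to 39.9 ± 2.45 FPKM in printed cells (log2 difference -1.62, SE 0.18, limma adjusted p = 8.6e-04) and kept that call under all 23 alternatives run. IL1R2, the decoy receptor for interleukin-1, rose to 15.6 ± 0.0312 from 6.28 ± 1.49 FPKM (log2 difference 1.21, SE 0.18, limma adjusted p = 0.0020), a call lost at equal totals with 0.51. SOCS3, the STAT3-induced inhibitor, rose in M14A flask by 1.02 (limma adjusted p = 0.041), a call lost without any 1 of the HepaRG or printed libraries.

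**Figure D5:**
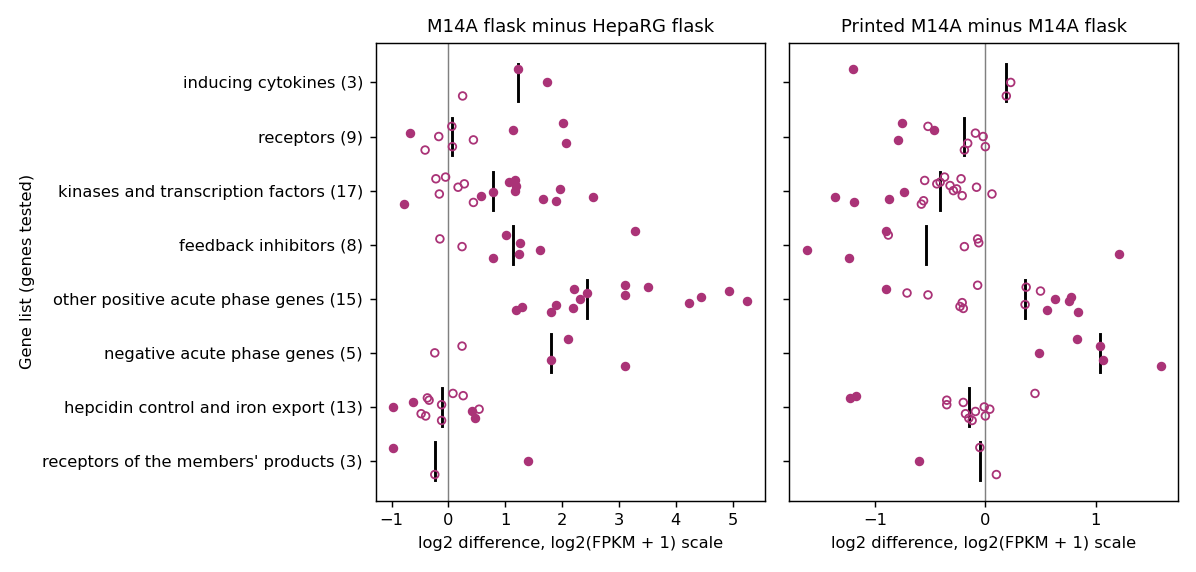
Log2 differences on the log2(FPKM + 1) scale of the tested genes in 8 lists, M14A flask minus HepaRG flask on the left and printed M14A minus M14A flask on the right; each point is a gene, filled where called at an adjusted p below 0.05, and the black bar is the list's median. On the left all 15 other positive acute phase genes are called higher, and on the right regulators lie mostly below 0 while the 5 negative acute phase genes are all called higher.

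The other positive acute phase genes that could be tested were higher in M14A flask and divided in printed cells. All 15 of the 23 listed genes that could be tested rose in M14A flask, with a median log2 difference of 2.43 against -0.04 over all genes, and the other 8 were below the filter. SERPINA3 and CFB reached 1 FPKM only in M14A cells, so they had to be higher there. FGB, the fibrinogen beta chain, showed the largest rise of the list, from 2.11 ± 0.280 to 120 ± 26.6 FPKM (log2 difference 5.26, SE 0.19, limma adjusted p = 4.3e-07). In printed cells 5 rose, 1 fell and 9 were not called, with a median of 0.36. Over all genes tested, 16.1% rose in M14A flask, and 17.7% rose and 15.5% fell in printed cells. C1R, a protease of the complement C1 complex, rose from 26.1 ± 2.83 to 47.5 ± 0.553 FPKM (log2 difference 0.84, SE 0.13, limma adjusted p = 0.0026), a call lost at equal totals with 0.10. SERPINA3, antichymotrypsin, fell from 3.82 ± 1.18 to 1.54 ± 0.0367 FPKM (log2 difference -0.90, SE 0.18, limma adjusted p = 0.0075). At equal totals 0 of this list rose and 6 fell in printed cells, and without printed library 2 it was 2 and 1.

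The negative acute phase genes that could be tested did not fall where the members rose. Of the 5 that could be tested of 14, 3 rose in M14A flask and 5 in printed cells, with medians of 1.81 and 1.04, and 0 fell in either. APOA1 and SERPINA6 reached 1 FPKM only in M14A cells, so they had to be higher there, and the flask median is the value of APOA1. Among all genes tested, 16.1% were called higher in M14A flask and 17.7% in printed cells. ALB (albumin) went from 2.19 ± 0.211 to 26.3 ± 3.01 and 81.2 ± 2.97 FPKM, log2 differences of 3.10 and 1.59 (SE 0.13 and 0.14, limma adjusted p = 8.6e-07 and 5.3e-04), and it kept both calls under all 23 alternatives. Without either printed library, or at equal totals, 3 of the 5 were called in printed cells.

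Of 13 tested genes of hepcidin control and iron export, 2 rose and 2 fell in M14A flask. Over all genes tested, 16.1% rose and 14.7% fell there. In printed cells 0 rose and 2 fell, where 17.7% of all genes rose and 15.5% fell. The flask counts and the printed falls were near these shares. The printed falls numbered 6 without M14A flask library 1 and 7 at equal totals. Hepcidin's target SLC40A1 (ferroportin) fell from 13.1 ± 1.11 to 6.44 ± 2.15 FPKM in M14A flask (log2 difference -0.97, SE 0.22, limma adjusted p = 0.011). SMAD6, an inhibitory SMAD of the BMP pathway that drives hepcidin, fell in printed cells from 4.77 ± 0.677 to 1.47 ± 0.321 FPKM (log2 difference -1.23, SE 0.15, limma adjusted p = 9.6e-04). BMP2, a ligand of that pathway, was higher in M14A flask by 0.46 (limma adjusted p = 0.038), a call lost without M14A flask library 2 or any 1 of the HepaRG libraries. Of the receptors for the members' products 3 of 8 could be tested, and 1 rose and 1 fell in M14A flask. TLR2, a sensor of bacterial lipoproteins that also binds serum amyloid A, rose in M14A flask from 2.43 ± 0.0505 to 8.13 ± 1.37 FPKM (log2 difference 1.4, SE 0.13, limma adjusted p = 9.7e-05). TLR4, the endotoxin receptor, fell from 1.24 ± 0.123 to 0.141 ± 0.0761 FPKM (log2 difference -0.97, SE 0.12, limma adjusted p = 4.1e-04). It reached 1 FPKM only in HepaRG flask, so it had to be lower in M14A flask. In printed cells TLR2 differed by -0.60 (limma adjusted p = 0.017), a call lost without M14A flask library 2 or either printed library.

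The genes with the profiles most like each member were found by Euclidean distance between centred log2(FPKM + 1) values over the 8 libraries, among 11306 protein-coding genes, as a description with 3 groups setting most of the distance. SAA1 lay closest to SAA2 (0.40), then to TFF3 (0.49) and CCL20 (0.82). For SAA2 the nearest gene outside the members was LBP (0.58). APCS lay nearest to MAGEB1 (0.65) and AQP9 (0.97), both of which had their main step between the flask-grown lines. LCN2 had no neighbour at a small distance, with CXCL1 at 3.41 and PDZK1IP1 at 3.52, although both correlated with it over the 8 libraries at r = 1.00. ORM1 lay nearest to RPL22L1 (0.40) and HLA-DRA (0.47), and ORM2 to the ribosomal protein genes RPS19 (0.34) and RPS21 (0.39), nearer than ORM1 and ORM2 lay to each other (0.80). RPS19 averaged 202, 298 and 947 FPKM in HepaRG flask, M14A flask and printed cells, next to 41.5, 68.8 and 227 FPKM for ORM2.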

How the data were processed

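The 8 libraries were made from TRIzol RNA with the NEBNext Ultra kit, per the labels' protocols. The submitters' processing notes name HISAT2 2.0.5 and featureCounts 1.5.0-p3. Neither options nor strandedness is given in the sources used here. Values are FPKM per gene as deposited by the authors, with the gene lengths used. Coordinates of all 58735 genes equal those of GENCODE 29 on GRCh38. FPKM times length gave whole reads for 100.0% of non-zero values (tolerance 0.01), hence 15632154 to 19148262 reads per library, and 1 read in a gene of 1 kb equals 0.0435 to 0.0747 FPKM. The authors' denominators were 0.818 to 1.20 times these totals, so changes are relative to the bulk of genes.

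Groups came from the titles, and 0 columns lacked a sample. Genes with at least 1 FPKM in 2 libraries were compared by limma 3.58.1 (R 4.3.3) on the scale log2(FPKM + 1) (all 8 libraries, 3 group means, eBayes with trend, two-sided), with calls at a Benjamini-Hochberg adjusted p under 0.05. Members below that filter have no fitted fold, and their read ratios carry 95% exact intervals. Members, lists and tests were chosen with earlier results of these data known. Named pathway genes are, per list and comparison, those with the largest called rise and fall, or else the highest level, plus IL6, IL6R, IL6ST, STAT3, CEBPB, CEBPD, SOCS3 and HNF4A; 1 further gene under this rule is not reported here. Alternatives were pseudocounts of 0.1 and 0.01, filters, scalings, voom weights on recovered reads, a replicate block, a threshold of 0.01, and omission of single libraries; removal of length and level trends (splines, 5 degrees of freedom) was added after the data were seen. The fit was also run on simulated reads that had a common spread for all genes and no length or level trend. That run does not show how the fit behaves with the trends and the outlying library of these data. Promoters are from RefSeq, GRCh38.p14.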

Additional observations from a re-analysis of the deposited data

How the results depend on the processing

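The number of members called higher in printed against flask M14A cells was 5 in the reported fit and 5 or 6 with single libraries left out, and 4 at equal totals, under quantile scaling and with length and level trends removed. It was 5 with the replicate number as a block, which moved the counts over all genes to 2286 higher and 2094 lower; the numbers are labels only, since same-numbered HepaRG and M14A flask libraries deviated together with correlations of -0.07, 0.08 and -0.16, and only 2 numbered pairs (0.49 and 0.36) link M14A flask with printed cells. One member (APCS) was called lower at equal totals, and it also turned below 0 without mitochondrial genes in the totals (-0.19), under quantile scaling (-0.21) and with length and level trends removed (-0.08), against -0.37 at equal totals. HAMP counted as 1 member lower by 2-fold than HepaRG flask at pseudocounts of 0.1 and 0.01, in M14A flask and in printed cells.

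Pathway list genes called higher in printed cells numbered 11, and 3 at equal totals, 4 without mitochondrial genes, 7 under quantile scaling and 6 when only the groups compared were fitted; left-out libraries gave 6 to 14. Those called lower numbered 15, and 45, 42, 25 and 7 in the same order, 25 with both trends removed without M14A flask library 1, and 8 at a threshold of 0.01; left-out libraries gave 10 to 25. In M14A flask 5 were lower than in HepaRG flask, and 1 at a filter of 5 FPKM, 9 at equal totals, 10 with trends removed without M14A flask library 1, and 1 at a threshold of 0.01; left-out libraries gave 2 to 9, the highest without M14A flask library 1. IL6ST, never called, turned positive between the flask-grown lines without M14A flask library 1 (0.13, and 0.17 with trends removed; -0.33 to 0.13 over left-out libraries). In printed cells it did so with the block (0.03), without M14A flask library 2 (0.12) or 3 (0.13) or printed library 1 (0.26; range -0.32 to 0.26), and with the length trend (0.21) or both trends (0.03) removed. The causes were not tested.

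Counts over all genes in printed against flask cells (2544 higher, 2226 lower) went to 4045 and 3866 without M14A flask library 1, 1202 and 1378 without printed library 1, 1590 and 1228 without printed library 2, and 1062 and 954 with only the groups compared. With 2 printed libraries their spread is taken from all groups. SAA4, CRP, HP and HAMP lie at 0 to 45 reads per library, where only large differences are detectable.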
